A study of Mus musculus with 12 samples.

Results

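Genes of the lipid droplet coat and of lipolysis were followed through the conversion of 3T3-L1 cells, a mouse embryonic fibroblast line that can be turned into fat cells, with or without knockdown of Fto. The set was fixed by gene symbol and holds 10 of the 55487 genes in the expression table: the perilipins Plin1, Plin2, Plin3 and Plin4, the droplet fusion gene Cidec, the lipases Pnpla2, Lipe and Mgll, the lipase activator Abhd5 and the lipase inhibitor G0s2. Each symbol had a single row. Cells carried a lentiviral hairpin without a target (shScram) or a hairpin against Fto (shFTO), which encodes an RNA demethylase that removes N6-methyladenosine. The paper lists 2 hairpins against Fto, and the sources do not say which was sequenced. Effects of the hairpin or of the line other than lower Fto were not tested. Cells of both lines were sequenced as growth-arrested preadipocytes (Pre), at the mitotic clonal expansion that follows MDI induction (MCE) and after differentiation (Diff), with 2 libraries in each of the 6 groups. MDI is a mixture of a phosphodiesterase inhibitor, dexamethasone and insulin, and medium with insulin followed it. The infected cells had been selected with puromycin, the labels call the cells fibroblasts, and the sources do not say whether the 2 libraries of a group came from separate cultures, so p-values measure only the spread between these libraries.

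Triacylglycerol is stored in droplets whose surface is covered by perilipins. PLIN1 is the main coat protein of mature fat cells, and in the resting state it holds ABHD5 and keeps lipases off the droplet. When cyclic AMP rises, PLIN1 is phosphorylated and releases ABHD5, which activates PNPLA2 (also called ATGL) for the first cut of triacylglycerol, after which LIPE (hormone-sensitive lipase) and MGLL remove the remaining fatty acids. PLIN2 and PLIN3 coat droplets in many cell types, PLIN4 coats small and nascent droplets, CIDEC moves lipid between droplets in contact so that large droplets form, and G0S2 binds and inhibits PNPLA2.

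Promoter sequence is shown for Plin1 and Cidec, which had the largest differences between the lines. RefSeq promoter windows of 300 bases (GRCm38.p6) were found for all 10 members, 13 windows in total. They were searched on both strands for the C/EBP core sites TTGCNNAA and TTNNGCAA, which are reverse complements of each other, and for the DR1 motif, in which AGGNCA is repeated directly with 1 base between the copies. DR1 is the element bound by PPARγ with its partner RXR, and C/EBP factors act with PPARγ in fat cell formation. A C/EBP core site was present in 2 of the 13 windows, those of Plin1 and Cidec, and in 10.8% of all 32851 windows, so the share among the members was near the background. DR1 was present in 0 of the 13 windows and in 0.381% of all windows. The bases upstream of these starts are printed 5′ to 3′ on the gene's own (minus) strand with the core site in capitals. The Plin1 stretch, chr7:79732904-79733026, lies 250 to 128 bases before the RefSeq start and outside every annotated exon of the gene. The Cidec stretch, chr6:113434765-113435014, lies directly before an internal RefSeq start, inside the gene but in no annotated exon.
Plin1: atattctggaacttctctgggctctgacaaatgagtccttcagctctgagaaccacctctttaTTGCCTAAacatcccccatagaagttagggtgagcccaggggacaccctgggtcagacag
Cidec: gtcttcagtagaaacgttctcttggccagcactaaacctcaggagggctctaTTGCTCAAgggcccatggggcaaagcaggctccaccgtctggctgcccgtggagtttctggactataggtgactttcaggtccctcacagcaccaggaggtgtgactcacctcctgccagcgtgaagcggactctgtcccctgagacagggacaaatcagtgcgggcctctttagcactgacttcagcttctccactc
The core site of Plin1 began 187 bases before the start and that of Cidec 198 bases before it. A further match in Plin1, TTGCCCAA, began 58 bases before the RefSeq start, in sequence that GENCODE M21 annotates as exon of longer Plin1 transcripts. These matches describe the sequence only, and no binding was measured.

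Expression was given as TPM, the relative abundance of a transcript in its library. This unit is already divided by transcript length, so levels of different genes in a library may be set side by side. TPM is a share of a nearly fixed total, so a difference between libraries also depends on the levels of all other genes. The read depth is unknown, because TPM does not keep it. Fto itself was between 52.7 and 73.5 TPM in the 6 shScram libraries and between 5.51 and 7.47 TPM in the 6 shFTO libraries. Averaged over stages, the difference on the log2(TPM + 1) scale was -3.09 (exact permutation test within stages, two-sided p = 0.00926, the smallest that this design allows). Library 1 of shScram at Diff has a treatment entry that names the knockdown, while its title says shScram, and its Fto level was 73.5 TPM; the title was followed. The 2 shScram libraries at Pre agreed less well (Pearson r = 0.939 across genes) than those of the other groups (0.990 to 0.993). The tests of the members given below were also computed without library 1 of shScram at Pre and library 1 of shScram at Diff, named the doubted libraries. The agreement of the 2 Pre libraries does not tell which of them departs, so leaving out library 1 there was a choice.

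Differences between lines were tested with limma on log2(TPM + 1) over all 12 libraries, with p-values adjusted over 15968 genes that reached 1 TPM in at least 2 libraries. A gene was called at an adjusted p under 0.05. Of the 10 members, 9 entered the test and Mgll did not. The members were chosen with earlier results of these data known, so the shares over all genes beside their counts are a description. Relative to shScram, shFTO cells had 2 members called lower and 1 higher at Pre, 5 lower and 0 higher at MCE, and 7 lower and 0 higher at Diff. Over all genes tested, 12.3% were called lower and 15.9% higher at Pre, 7.26% lower and 10.5% higher at MCE, and 9.31% lower and 11.9% higher at Diff. The median log2 difference of the 9 tested members was 0.03 at Pre, -0.60 at MCE and -1.35 at Diff, beside medians of 0.08, 0.05 and 0.03 over all genes. Both shFTO libraries lay below both shScram libraries for 2 tested members at Pre, 7 at MCE and 8 at Diff. They lay above for 3, 1 and 0 members. Of the 15968 genes, 4300, 4842 and 5425 lay below in this way, and 5368, 6557 and 6222 lay above. Lines without overlap were thus common among all genes. Leaving out the 2 doubted libraries removes no MCE library, so the differences at MCE keep their size and only the estimated spread changes. It leaves 1 library each in shScram Pre and shScram Diff. Adjusted p-values from that setting, given below, and its counts are therefore no independent check. In bulk RNA, fewer fat cells and less RNA of a gene per cell cannot be told apart.

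**Figure D1:**
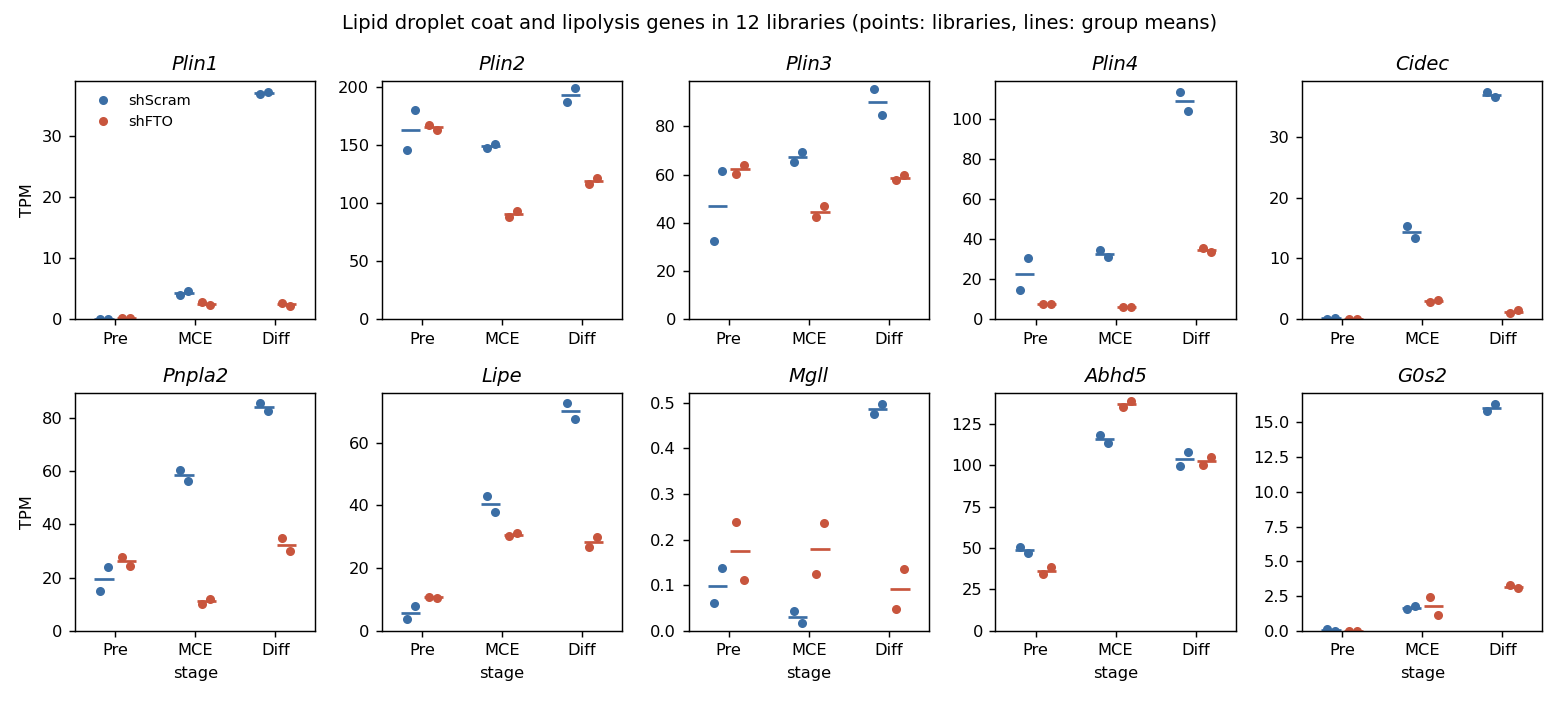
TPM of the 10 members (vertical axis, starting at 0, with its own scale in each panel) at the 3 stages (horizontal axis) in shScram (blue) and shFTO (red); points are libraries and short lines are group means. Plin1, Cidec and G0s2 have their highest levels in shScram Diff, whereas the levels of Abhd5 at Diff overlap between the lines.

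Among the coat genes, Plin1 had the largest difference between the lines at Diff, and Plin4 at Pre and MCE. The shScram level of Plin1 was 0 and 0.0498 TPM at Pre, 4.02 and 4.53 at MCE, and 36.9 and 37.1 at Diff. In shFTO it was 0.115 and 0.248 TPM at Pre, 2.73 and 2.26 at MCE, and 2.65 and 2.21 at Diff. The control cells thus passed through an 8.65-fold increase of mean Plin1 between MCE and Diff, while the shFTO libraries of these stages overlapped. At Diff the mean of shFTO was 6.56% of that of shScram, a log2 difference of -3.47 ± 0.16 (SE; adjusted p = 1.95e-06). At MCE the difference was -0.60 ± 0.16 (adjusted p = 0.0290), and that call was lost with a pseudocount of 0.1 (adjusted p = 0.147), without the filter on low values (0.0695) and without any 1 of the 4 MCE libraries or of the 2 shScram Diff libraries (0.0507 to 0.201). The knockdown difference at Diff was larger than that at MCE by a direct test of the difference (-2.88 ± 0.22, adjusted p = 0.00075). Plin1 lies at chr7:79720218-79732903 on the minus strand (GRCm38).

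Plin2, the coat gene of most cell types, had the highest level of the 4 perilipins in every group. In shScram it was 146.0 and 180.4 TPM at Pre, 148.0 and 150.8 at MCE, and 187.6 and 199.9 at Diff. The shFTO libraries held 167.7 and 163.3 TPM at Pre, 88.1 and 93.2 at MCE, and 116.9 and 122.2 at Diff. The lines overlapped at Pre and were separate at both later stages, where shFTO held 60.7% (MCE) and 61.7% (Diff) of the shScram mean. The log2 differences were -0.72 ± 0.12 at MCE (adjusted p = 0.00432) and -0.69 ± 0.12 at Diff (adjusted p = 0.0043). Plin2 fell between Pre and MCE in shFTO (log2 change of -0.86 ± 0.12, adjusted p = 0.000934), and the change in shScram was -0.12 ± 0.12 (adjusted p = 0.465). The test of the difference between these changes gave -0.74 ± 0.17 (adjusted p = 0.0455), close to the threshold, and over the alternatives its adjusted p ran from 4.96e-05 to 0.193.

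Plin3, which moves between cytosol and droplets, did not pass the test in any comparison. Its shScram level was 32.5 and 61.5 TPM at Pre, 65.4 and 69.3 at MCE, and 95.7 and 85.0 at Diff. With the Fto hairpin it was 60.2 and 64.1 TPM at Pre, 42.3 and 47.0 at MCE, and 57.8 and 59.8 at Diff. Both shFTO libraries were below both shScram libraries at MCE and at Diff. The log2 differences were -0.58 ± 0.24 at MCE (adjusted p = 0.140) and -0.61 ± 0.24 at Diff (adjusted p = 0.112). The widest pair was that of shScram Pre, and without the 2 doubted libraries the adjusted p was 0.000369 at MCE and 0.00238 at Diff.

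Plin4, the coat gene of nascent droplets, was the perilipin that differed before induction. It was 14.6 and 30.4 TPM at Pre, 34.4 and 31.1 at MCE, and 113.7 and 104.3 at Diff in shScram. The shFTO libraries held 7.38 and 7.48 TPM at Pre, 6.02 and 6.30 at MCE, and 35.6 and 33.8 at Diff. Every shFTO library was below every shScram library of its stage, and the shFTO means were 33.0%, 18.8% and 31.8% of those of shScram at the 3 stages. The log2 differences were -1.39 ± 0.26 at Pre (adjusted p = 0.0077), -2.24 ± 0.26 at MCE (adjusted p = 0.000648) and -1.62 ± 0.26 at Diff (adjusted p = 0.00282). The rise from MCE to Diff was present in both lines, 3.33-fold in the shScram mean and 5.63-fold in the shFTO mean, and the test of the difference between these rises gave 0.61 ± 0.37 (adjusted p = 0.512). The call at Pre was lost in 2 of 21 alternatives, without library 1 of shFTO at Pre and in the fit on only the Pre libraries (adjusted p = 0.256). The latter fit called 0 of all 15968 genes. Plin4 overlaps Hdgfl2 on the opposite strand, which was between 84.1 and 120.7 TPM in the 12 libraries; whether reads were counted by strand is not given in the sources used here, so reads of the pair cannot be separated.

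**Figure D2:**
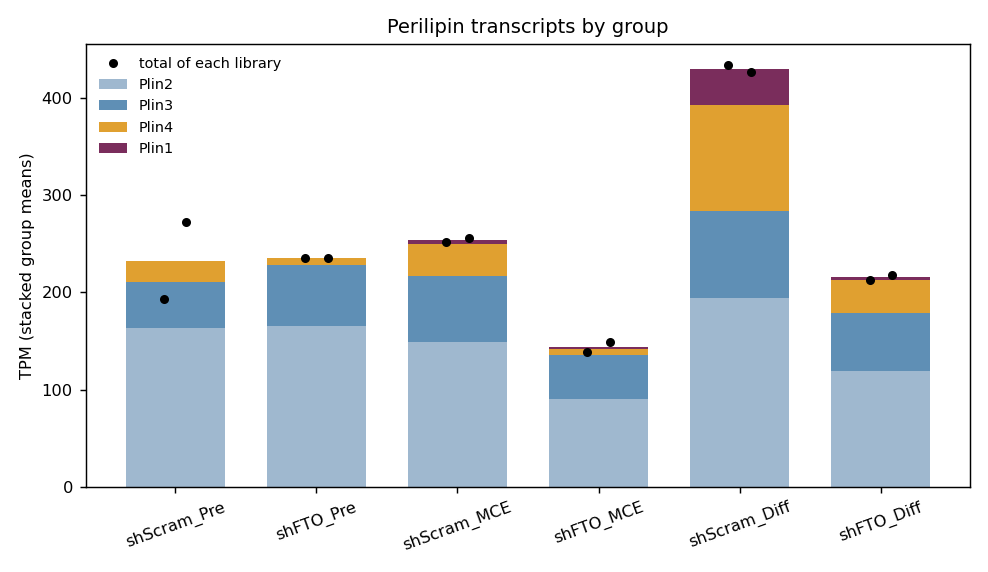
Stacked group means of the perilipins in TPM (vertical axis) for the 6 groups (horizontal axis), with the summed perilipin TPM of each library as black points. The total at Diff is 430.1 TPM in shScram and 215.5 TPM in shFTO, with the Plin1 segment almost absent in the latter.

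Summed over the 4 genes, perilipin transcripts stood at 193.1 and 272.4 TPM in shScram against 235.4 and 235.2 TPM in shFTO at Pre. At MCE the sums were 251.8 and 255.7 TPM in shScram against 139.1 and 148.8 TPM in shFTO, and at Diff they were 433.8 and 426.3 TPM against 213.0 and 218.0 TPM. The lines were interleaved at Pre and separate at both later stages. The composition differed as well as the sum. At Diff, Plin2 made up 45.1% ± 2.59 (SD, n = 2) of perilipin transcripts in shScram and 55.5% ± 0.81 in shFTO, and Plin3 made up 21.0% ± 1.51 and 27.3% ± 0.22. The shares of the other two genes were lower in shFTO, with Plin4 at 16.1% ± 0.87 against 25.3% ± 1.22 and Plin1 at 1.13% ± 0.16 against 8.60% ± 0.14. None of these shares overlapped between the lines.

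Cidec, needed for large droplets, had the largest difference of all members. It was 0 and 0.230 TPM at Pre, 15.3 and 13.4 at MCE, and 37.3 and 36.5 at Diff in shScram. In shFTO it was listed at 0 in both Pre libraries, reached 2.77 and 3.07 TPM at MCE, and stood at 0.932 and 1.46 TPM at Diff. Cidec was called higher at MCE than at Pre in both lines. From MCE to Diff it rose in shScram (log2 change of 1.31 ± 0.18, adjusted p = 0.00127) and fell in shFTO (-0.85 ± 0.18, adjusted p = 0.00821). The shFTO mean was 20.3% of the shScram mean at MCE (log2 difference of -1.97 ± 0.18, adjusted p = 0.000135) and 3.24% at Diff (-4.12 ± 0.18, adjusted p = 1.68e-06), where it was 30.9-fold lower. The knockdown difference grew from Pre to MCE by -1.82 ± 0.25 (adjusted p = 0.00489) and from MCE to Diff by a further -2.15 ± 0.25 (adjusted p = 0.00314). With a pseudocount of 0.1 in place of 1 these values were -1.40 and -2.61, and neither passed the test (adjusted p = 0.275 and 0.130). The fall in shFTO lost its call without library 2 of shFTO at MCE (adjusted p = 0.0662), without library 1 of shFTO at Diff (0.0677) and with the pseudocount of 0.1 (0.0957), and that pseudocount also ended the call of the rise in shScram (0.0756).

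Among the lipases, Pnpla2 (chr7:141455198-141460743, plus strand), which makes the first cut of triacylglycerol, had its largest difference between the lines at MCE. In shScram it was 14.9 and 23.8 TPM at Pre, 60.5 and 56.4 at MCE, and 85.6 and 82.5 at Diff. In shFTO it was 27.7 and 24.4 TPM at Pre, 10.0 and 12.1 at MCE, and 34.7 and 29.99 at Diff. The direction of the change from Pre to MCE was opposite in the lines, with a 3.02-fold rise of the mean in shScram (log2 change of 1.58 ± 0.20, adjusted p = 0.000502) and a 2.36-fold fall in shFTO (-1.17 ± 0.20, adjusted p = 0.00272). The difference between these changes was -2.75 ± 0.29 (adjusted p = 0.00134). At MCE the shFTO mean was 18.9% of the shScram mean (log2 difference of -2.31 ± 0.20, adjusted p = 0.000125), and at Diff it was 38.5% (-1.35 ± 0.20, adjusted p = 0.00181). Pnpla2 then rose from MCE to Diff in shFTO (1.47 ± 0.20, adjusted p = 0.00118), and its mean at Diff was 1.24-fold its Pre mean, beside 4.34-fold in shScram.

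Lipe, hormone-sensitive lipase, was called lower in shFTO at Diff. It was 3.74 and 7.83 TPM at Pre, 43.0 and 38.0 at MCE, and 72.6 and 67.7 at Diff in shScram. The shFTO libraries held 10.7 and 10.6 TPM at Pre, 30.1 and 31.1 at MCE, and 26.6 and 29.9 at Diff. Lipe rose from Pre to MCE in shScram (log2 change of 2.68 ± 0.24, adjusted p = 7.28e-05) and in shFTO (1.44 ± 0.24, adjusted p = 0.0024). At MCE the difference between lines was -0.39 ± 0.24 (adjusted p = 0.338; 0.00975 without the 2 doubted libraries), and at Diff it was -1.28 ± 0.24 (adjusted p = 0.00624), with the shFTO mean at 40.3% of that of shScram. Without library 1 of shFTO at Diff the adjusted p at Diff was 0.0516. At Pre Lipe was called higher in shFTO (0.85 ± 0.24, adjusted p = 0.0335), a call that was lost in 12 of 21 alternatives. Lipe overlaps 4732471J01Rik on the opposite strand, which was between 0.490 and 5.19 TPM.

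Mgll, the last lipase of the pathway, was at or below 0.498 TPM in all 12 libraries and was not tested. Its highest values were those of shScram Diff, 0.475 and 0.498 TPM, beside 0.0484 and 0.136 TPM in shFTO Diff. At these levels no fold is given, and Mgll shares its span with 5 other annotated genes.

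Abhd5, the activator of Pnpla2, was the member whose level overlapped between the lines at Diff. In shScram it was 50.6 and 47.0 TPM at Pre, 118.0 and 113.3 at MCE, and 99.6 and 107.7 at Diff. After knockdown it was 34.2 and 38.3 TPM at Pre, 135.1 and 138.7 at MCE, and 100.0 and 105.1 at Diff. The lines overlapped at Diff, where the log2 difference was -0.01 ± 0.11 (adjusted p = 0.943). At Pre Abhd5 was lower in shFTO (-0.42 ± 0.11, adjusted p = 0.0243). That call was lost in 5 of 21 alternatives. They were the fits without either shFTO library at Pre or at MCE, and the fit on only the Pre libraries (adjusted p = 0.330). The last of these fits called 0 of all 15968 genes. At MCE the difference of Abhd5 was 0.24 ± 0.11 (adjusted p = 0.176), and it was called in 4 of 21 alternatives. It rose from Pre to MCE in both lines, 2.37-fold in the shScram mean and 3.78-fold in the shFTO mean, with an adjusted p of 0.0459 for the difference between the rises (0.66 ± 0.15) that ran from 0.000639 to 0.180 over the alternatives.

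G0s2, the inhibitor of Pnpla2, had its highest level at Diff in both lines. It was 0.110 and 0 TPM at Pre, 1.55 and 1.80 at MCE, and 15.8 and 16.3 at Diff in shScram. Both shFTO libraries at Pre listed it at 0, and it reached 2.44 and 1.17 TPM at MCE and stood at 3.27 and 3.10 TPM at Diff. G0s2 rose from Pre to MCE in shScram (log2 change of 1.34 ± 0.21, adjusted p = 0.00155) and in shFTO (1.45 ± 0.21, adjusted p = 0.00113). The lines overlapped at MCE, where the log2 difference was 0.03 ± 0.21 (adjusted p = 0.953), and were apart at Diff, where the shFTO mean was 19.8% of the shScram mean (-2.03 ± 0.21, adjusted p = 0.000262). The difference between the stages was -2.06 ± 0.30 (adjusted p = 0.00984), and over the alternatives its adjusted p ran from 0.00164 to 0.132, with the highest value at a pseudocount of 0.1 and values of 0.05001 to 0.0556 without library 1 of shScram at MCE, library 2 of shScram at Diff or either shFTO library at Diff. From MCE to Diff the mean rose 9.58-fold in shScram (adjusted p = 0.00011), and in shFTO the log2 change was 0.62 ± 0.21 (adjusted p = 0.0621). G0s2 lies within the span of Lamb3 on the opposite strand, which was between 0.153 and 4.37 TPM.

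**Figure D3:**
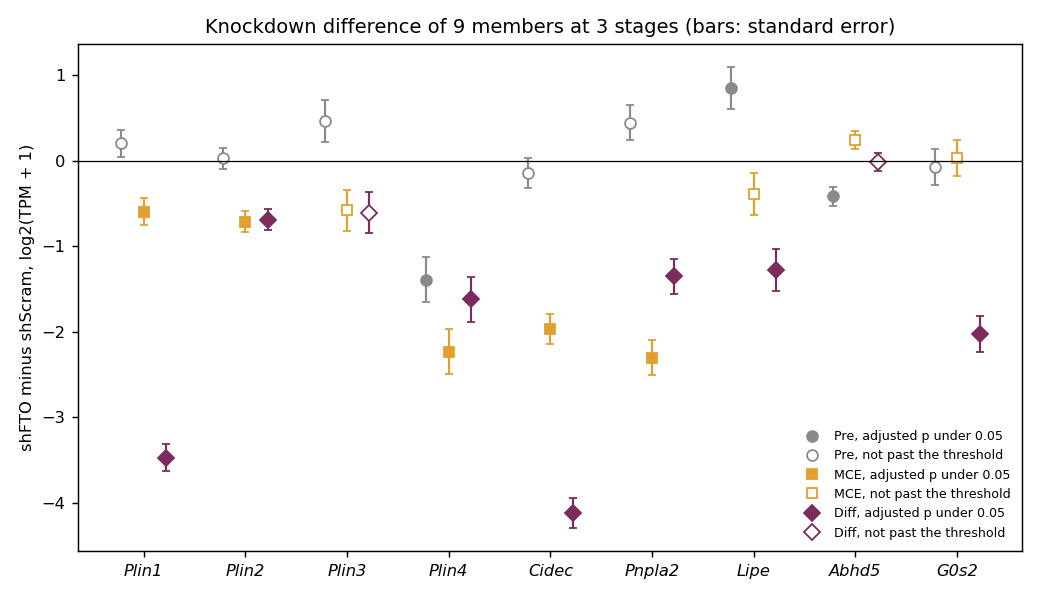
Difference between shFTO and shScram on the log2(TPM + 1) scale (vertical axis) for the 9 tested members (horizontal axis) at Pre (grey circles), MCE (yellow squares) and Diff (purple diamonds), with standard errors; filled symbols have an adjusted p under 0.05. Cidec (-4.12) and Plin1 (-3.47) reach the lowest values at Diff, Pnpla2 (-2.31) and Plin4 (-2.24) at MCE.

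Because Abhd5, G0s2 and Lipe act with or after Pnpla2, their transcripts were also expressed per transcript of Pnpla2. The ratio of Abhd5 to Pnpla2 in shScram was 3.39 and 1.97 at Pre, 1.95 and 2.01 at MCE, and 1.16 and 1.31 at Diff. In shFTO it was 1.24 and 1.57 at Pre, 13.5 and 11.5 at MCE, and 2.88 and 3.50 at Diff. Both shFTO libraries were above both shScram libraries at MCE and at Diff and below them at Pre. The ratio of Lipe to Pnpla2 at MCE was 3.01 and 2.57 in shFTO against 0.711 and 0.674 in shScram, and at Diff the lines were interleaved (0.766 and 0.998 in shFTO, 0.847 and 0.821 in shScram). G0s2 per Pnpla2 at Diff was 0.0943 and 0.103 in shFTO and 0.184 and 0.198 in shScram. At MCE that ratio was 0.244 and 0.0966 in shFTO and 0.0256 and 0.0320 in shScram, so its order between the lines was opposite at the 2 stages. At MCE none of Abhd5, Lipe and G0s2 was called between the lines, and G0s2 was at most 2.44 TPM. The divisor Pnpla2 in shFTO was at 18.9% of its shScram mean there. The differences of these ratios at MCE thus largely reflect that of Pnpla2.

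**Figure D4:**
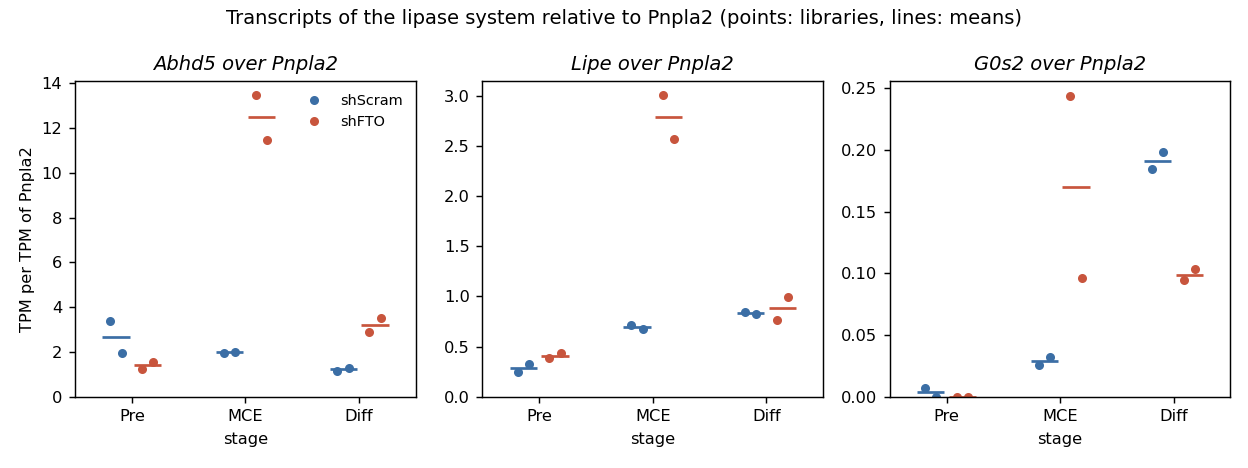
TPM of Abhd5, Lipe and G0s2 per TPM of Pnpla2 (vertical axes from 0, a separate scale for each gene) at the 3 stages in shScram (blue) and shFTO (red); points are libraries and short lines are means. The shFTO libraries at MCE stand at 13.5 and 11.5 for Abhd5 and at 3.01 and 2.57 for Lipe, above every other library in those panels.

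Through the course of the control cells, 6 of the 9 tested members were called higher and 0 lower at MCE than at Pre, and 5 higher and 0 lower at Diff than at MCE. Over all genes, 12.2% were higher and 26.9% lower in the first of these steps, and 20.0% were higher and 5.22% lower in the second. In shFTO, 5 members were called higher and 2 lower from Pre to MCE, beside 8.80% and 19.9% of all genes, and 3 higher and 2 lower from MCE to Diff, beside 20.2% and 6.48%. The members lower in shFTO were Plin2 and Pnpla2 in the first step, and Cidec and Abhd5 in the second, where the call of Abhd5 (-0.41 ± 0.11, adjusted p = 0.0223) was lost without any 1 of the 4 shFTO libraries at MCE and Diff (0.0853 to 0.135). The median log2 change over all genes was -0.17 and 0.23 in the steps of shScram and -0.18 and 0.17 in those of shFTO, and those of the tested members were 1.34, 0.78, 1.44 and 0.39. With median-ratio scaling the medians over all genes were close to 0 (between -0.003 and 0.01). The split of calls over all genes then was 3202 higher and 2831 lower from Pre to MCE in shScram, in place of 1942 and 4294, and 1866 higher and 1765 lower from MCE to Diff, in place of 3190 and 833. In shFTO it was 2263 higher and 2249 lower in the first step, in place of 1405 and 3180, and 2456 higher and 2027 lower in the second, in place of 3222 and 1034. In the same scaling, Abhd5 was called lower from MCE to Diff in shScram (-0.43, adjusted p = 0.0303), and Lipe was not called in that step (0.51, adjusted p = 0.118). In the original scaling Lipe was close to the threshold there (0.78 ± 0.24, adjusted p = 0.0465), and its call was lost in 15 of 21 alternatives, with an adjusted p of up to 0.220. Likewise, Plin2 from MCE to Diff in shFTO (0.40 ± 0.12, adjusted p = 0.0417) lost its call in 12 of 21 alternatives, with an adjusted p of up to 0.240.

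The tests of whether the knockdown difference itself moved between stages called 3 members lower and 1 higher at MCE against Pre (Pnpla2, Cidec and Plin2 lower, Abhd5 higher), beside 2.59% and 2.52% of all genes. At Diff against MCE they called 3 lower and 0 higher (Plin1, Cidec and G0s2), beside 1.01% and 1.47% of all genes. Pnpla2 moved in the opposite direction at the second step (0.95 ± 0.29), with an adjusted p of 0.144.

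The order of the group means differed by gene. All members except Abhd5 had their highest mean in shScram Diff. For Plin2 the 2 groups at Pre followed and overlapped each other, shScram MCE came next and overlapped shScram Pre but not shFTO Pre, and both later shFTO groups were at the bottom. For Plin4, shFTO Diff and shScram MCE overlapped below shScram Diff. For Pnpla2 no neighbouring groups overlapped, and shFTO MCE was lowest, under both Pre groups. For Abhd5, shFTO MCE was highest, followed by shScram MCE and then by the overlapping Diff groups.

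Related genes outside the set were taken from 3 lists. The shares of all genes called, given above for each stage, apply to their counts as well. Of 17 other droplet proteins, 11 were tested, and 1 was lower and 2 higher in shFTO at Pre, 1 lower and 1 higher at MCE, and 2 lower and 2 higher at Diff. Hilpda, a droplet protein that inhibits Pnpla2, was 24.0 and 32.2 TPM in shScram against 104.7 and 114.5 TPM in shFTO at MCE (log2 difference of 1.94 ± 0.24, adjusted p = 0.000856), and 23.8 and 18.5 against 40.4 and 37.9 TPM at Diff (0.87 ± 0.24, adjusted p = 0.033). Both Pnpla2 inhibitors were thus measured at Diff, G0s2 lower and Hilpda higher in shFTO. Bscl2, which encodes seipin of droplet biogenesis, was higher at Diff (1.24 ± 0.30, adjusted p = 0.0174), and Hsd17b11 (-0.96 ± 0.12, adjusted p = 0.000721) and Faf2 (-0.47 ± 0.12, adjusted p = 0.0206) were lower. The median over this list at Diff was -0.20, beside 0.03 over all genes.

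Of 18 genes of cyclic nucleotide control, 12 were tested, with 2 lower and 3 higher at Pre, 0 lower and 4 higher at MCE and 0 lower and 3 higher at Diff. Pde3b, the phosphodiesterase through which insulin lowers cyclic AMP and restrains lipolysis, had the largest difference. It was 1.76 and 1.36 TPM in shScram against 48.3 and 47.9 TPM in shFTO at MCE (log2 difference of 4.27 ± 0.18, adjusted p = 3.21e-06), and 0.735 and 1.09 against 44.5 and 46.8 TPM at Diff (4.61 ± 0.18, adjusted p = 1.23e-06). The lines were already apart at Pre, with 1.88 and 1.31 TPM in shScram against 9.23 and 11.6 TPM in shFTO. Adcy3, an adenylyl cyclase (1.81 ± 0.26, adjusted p = 0.00153), and Gnas, the stimulatory G protein subunit (0.51 ± 0.16, adjusted p = 0.0469), were also higher at Diff. Prkar2a, a regulatory subunit of protein kinase A, was higher at MCE (0.41 ± 0.12, adjusted p = 0.0431). The median of this list was 0.24 at MCE and 0.16 at Diff.

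Of 11 other hydrolases and carriers, 10 were tested, with 2 lower and 2 higher at Pre and 5 lower and 1 higher at both MCE and Diff. Fabp4, the fatty acid carrier of fat cells, was 876.3 and 836.2 TPM in shScram against 137.7 and 117.8 TPM in shFTO at Diff (log2 difference of -2.74 ± 0.16, adjusted p = 7.83e-06). Ces1d, a carboxylesterase (-1.90 ± 0.33, adjusted p = 0.00387), and Fabp5 (-1.76 ± 0.23, adjusted p = 0.000856) were lower at Diff as well, and Abhd6, a monoacylglycerol lipase, was higher (0.77 ± 0.15, adjusted p = 0.00735). At MCE, Lpl, which frees fatty acids from lipoproteins outside the cell, was higher in shFTO (1.22 ± 0.20, adjusted p = 0.00324), and Ces1f (-1.69 ± 0.33, adjusted p = 0.00772) was lower. The median of this list was -0.34 at MCE and -0.78 at Diff.

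**Figure D5:**
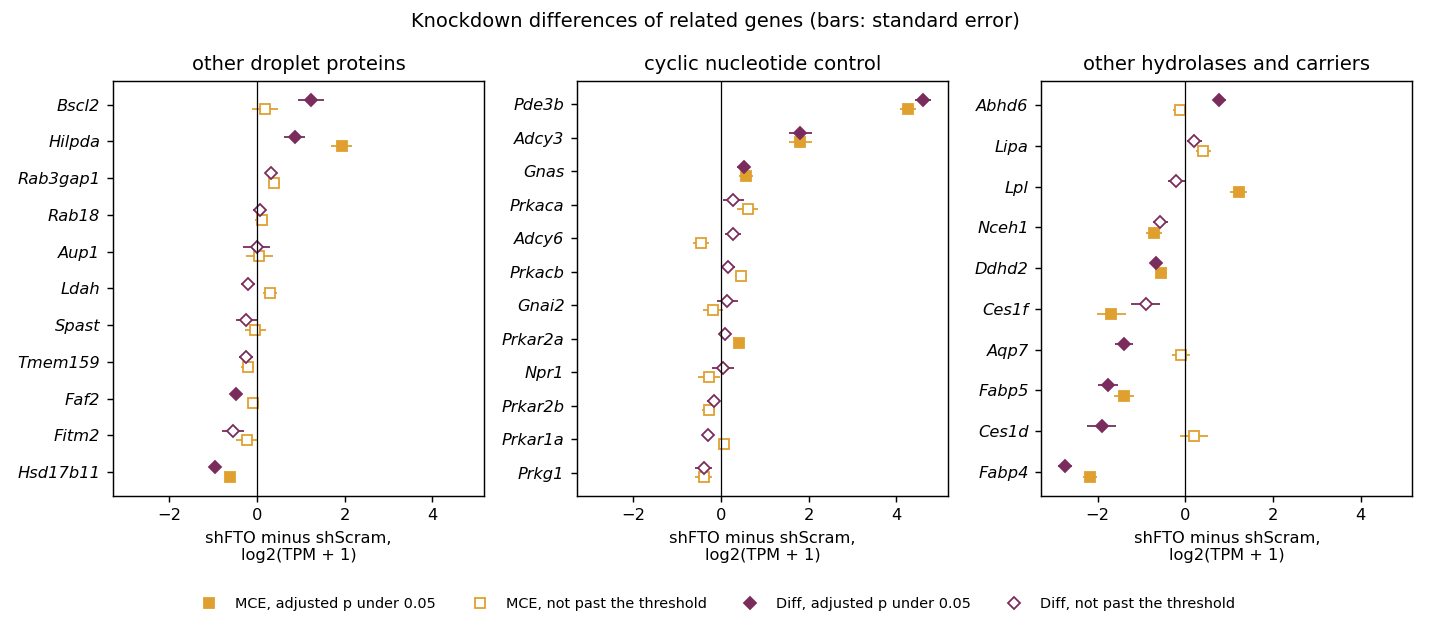
Difference between shFTO and shScram on the log2(TPM + 1) scale (horizontal axis) at MCE (yellow squares) and Diff (purple diamonds) for the tested genes of 3 related lists (vertical axes), with standard errors; filled symbols have an adjusted p under 0.05. Pde3b stands at 4.27 and 4.61, and Fabp4 at -2.74 for Diff.

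At Diff most tested adipocyte markers were called lower in shFTO, and no fibroblast marker was. The 8 adipocyte markers, of which Fabp4 and Lpl are also among the carriers and hydrolases, summed at Diff to 1360 and 1345 TPM in the control line and 453.3 and 414.1 TPM after knockdown, and 5 of the 7 tested were called lower and 0 higher. Adipoq, which encodes adiponectin, was 77.2 and 72.4 TPM in shScram against 6.05 and 3.66 TPM in shFTO at that stage. Fabp4 alone was 876.3 and 836.2 TPM of the sums in shScram and 137.7 and 117.8 TPM of those in shFTO. Lpl (-0.21, adjusted p = 0.515) and Cebpa (0.28, adjusted p = 0.685) were not called at Diff. The part of this lower marker level in the differences of the members was not tested. The 6 fibroblast markers summed to 5174 and 4853 TPM in shScram Diff and 5404 and 5667 TPM in shFTO Diff, with 1 of 6 called higher. Markers of macrophages (Adgre1 at 0 in all libraries, sums of 1.62 to 10.98 TPM), muscle (Myod1 at 0, sums of 3.28 to 13.2 TPM) and hepatocytes (sums of at most 0.1001 TPM) were low throughout. Of the brown adipocyte markers, Ucp1 was at most 0.0423 TPM and Cidea at most 0.541 TPM, while Dio2 at Diff was 0.745 and 0.499 TPM in shScram against 23.3 and 25.1 TPM in shFTO.

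The genes with a pattern most like that of a member were found by Pearson r of log2(TPM + 1) over the 12 libraries among 10791 genes with a mean of at least 5 TPM. The libraries share stages and lines, so these values are a description. For Plin1 they were Plpp1 (r = 0.975), Megf9 (0.972) and Cd36, a fatty acid transporter (0.971). For Plin2 they were AU021092 (0.968), Amotl1 (0.964) and Srgap3 (0.952). For Pnpla2 they were Arl6ip5 (0.966), Il6ra (0.956) and Capn1 (0.955). For G0s2 they were Adamts12 (0.975), Nrp1 (0.973) and Adipoq (0.961).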

How the data were processed

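RNA of 12 libraries was chemically fragmented, size-selected and sequenced. Rhein-treated and immunoprecipitated material of the study is not analysed here. Per the labels and the methods, the authors used Trim Galore 0.6.5 for trimming, HISAT2 2.1.0 for alignment against GRCm38 and StringTie 2.1.4 with Ensembl genes for quantification, and the deposited unit is TPM per gene. The authors called their own differences with DESeq2 1.30.1 on counts, which were not used here. TPM sums to nearly the same total in each library (999758 to 999953), so depth is unknown and no counting error can be given, and a gene's value also moves with all others.

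Samples were grouped by their titles. Values were used as log2(TPM + 1), and genes with at least 1 TPM in at least 2 libraries were kept. limma 3.58.1 (R 4.3.3) was fitted with 1 mean per group over all 12 libraries (6 residual degrees of freedom) and an intensity trend, and p-values were adjusted by Benjamini-Hochberg over 15968 genes in each of 9 contrasts. The script was tested on simulated data. Fold values are ratios of mean TPM; log2 differences understate changes of low genes. The members and the lists were chosen with earlier results of these data known. Text names all members, Fto, at most 3 called genes at either end of each related list at Diff with up to 3 more at MCE, markers, and the 3 genes most like each of 4 members. Libraries were not treated as paired by replicate number. Over 15 pairs of groups, the correlation of deviations ran from -0.290 to 0.172 (median 0.0069), which shows no pairing but cannot exclude it. Alternatives were another pseudocount, other filters, scalings and fits, a replicate block, each library left out, the thresholds of the study (fold of 2 and unadjusted p) and, chosen after seeing the data, both doubted libraries left out. Gene positions are from GENCODE M21 and promoter windows from RefSeq, both GRCm38. Sequences of proteins were not used here.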

Additional observations from a re-analysis of the deposited data

Results flagged for a closer look

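In 7 cases the difference between shFTO and shScram was itself different at 2 stages by a direct test in limma (log2 scale, Benjamini-Hochberg adjusted p under 0.05 over 15968 genes). From Pre to MCE the difference moved by -2.75 for Pnpla2, -1.82 for Cidec, -0.74 for Plin2 and 0.66 for Abhd5. From MCE to Diff it moved by -2.88 for Plin1, -2.15 for Cidec and -2.06 for G0s2. The calls of Plin2 and Abhd5 lay close to the threshold and each was lost in 14 of 21 alternatives. Those of Pnpla2 (from Pre to MCE) and Plin1 (from MCE to Diff) were called in all 21.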

How the results depend on the processing

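Of 564 recomputed knockdown differences of members, 506 kept direction and side of the threshold, 28 lost the call, 21 gained it and 9 changed sign; the last were differences of members not called to begin with. Over all 9 comparisons the numbers were 1486, 101, 81 and 24 of 1692. Members called under alternatives ran from 0 to 5 at Pre, 3 to 8 at MCE and 6 to 8 at Diff. The number of all genes called moved between the alternatives as well. The fit on only the libraries of a contrast called 0 members and 0 of all 15968 genes at Pre. It called 8 members at MCE, beside 2256 genes lower and 3657 higher, in place of 1159 and 1679. In shScram it called 3 members from Pre to MCE (306 genes lower, 198 higher) and 8 from MCE to Diff (1623 lower, 4831 higher). It called 2 for the difference at MCE against Pre (123 lower, 116 higher) and 6 at Diff against MCE (1429 lower, 1265 higher). Leaving out both doubted libraries leaves 1 library each in shScram Pre and shScram Diff, so its counts are not read as a result about the members. The thresholds of the study gave 1 at Pre, 3 at MCE and 2 from MCE to Diff in shFTO. Over all genes they gave 702 lower and 1700 higher at Pre and 632 and 807 at MCE. In that step of shFTO they gave 344 lower and 1882 higher. A pseudocount of 0.1 gave 3 from MCE to Diff in shScram and 1 at Diff against MCE. Over all genes it gave 766 lower and 3078 higher in the first of these and 69 and 133 in the second. Without the trend, 2 were called at MCE against Pre, beside 418 lower and 400 higher over all genes. The replicate block also gave 2 there, beside 288 and 265, and changed no other count of members by over 1.5 times. With single libraries left out, counts ran from 0 to 5 at Pre, 4 to 8 at MCE, 4 to 8 from MCE to Diff in shScram, 2 to 7 in shFTO, 2 to 8 at MCE against Pre and 2 to 6 at Diff against MCE; the highest count in each of these except shFTO was reached without a library of shScram at Pre, the group with the widest spread. The lowest at Pre was reached without library 1 of shFTO at Pre. The cause of the other changes was not tested.

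Signs that changed were of differences not called to begin with. Those of G0s2 reached -0.30 at MCE and -0.23 at MCE against Pre. With median-ratio scaling they were Plin2 at Pre (-0.051) and from Pre to MCE in shScram (0.11), G0s2 at MCE (-0.014) and Plin3 at Diff against MCE (0.034). With quantile normalization they were Plin2 at Pre (-0.098) and Plin4 from Pre to MCE in shFTO (0.0087). Without both doubted libraries they were Plin2 at Pre (-0.12) and at Diff against MCE (-0.022) and Plin3 at Diff against MCE (0.060). With single libraries left out, values ran for Plin2 from -0.12 to 0.18 at Pre, from -0.27 to 0.033 from Pre to MCE in shScram and from -0.022 to 0.069 at Diff against MCE, for Plin3 from -0.11 to 0.060 at Diff against MCE, for G0s2 from -0.30 to 0.36 at MCE and from -0.23 to 0.44 at MCE against Pre, for Abhd5 from -0.071 to 0.042 at Diff, and for Plin1 from -0.13 to 0.071 from MCE to Diff in shFTO. The filter at a mean of 5 TPM leaves no value for G0s2. Depth is unknown and sets no stated limit; low genes such as Mgll could not be compared.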
